A study of Mus musculus with 12 samples.

Results

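The genes described here are the receptor RANK and 9 NF-kappaB signalling genes that act below it, read in mouse osteoclast-lineage cultures. They were chosen by symbol: Tnfrsf11a (RANK itself), the adaptors Traf1, Traf2, Traf3 and Traf6, the kinase gene Map3k14, the subunit genes Nfkb1, Nfkb2 and Relb, and the inhibitor gene Nfkbia. All 10 were found among the 55401 genes of the culture count data, and all 10 were among the 14030 genes that had enough counts to be tested. RNA sequencing of bone marrow cultures gave 8 libraries in 4 groups of 2, and 4 embryonic forelimb libraries of the same study were not used here. Cultures came from Wt mice or from LysM-cKO mice, in which Impdh2, the gene of an enzyme of guanine nucleotide synthesis, was deleted in the myeloid lineage that osteoclasts come from. The deletion follows the activity of LysM in that lineage, so other cells of a marrow culture would keep the gene, and the labels do not say whether the Wt mice carried a Cre or a floxed allele.

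Marrow cells of all 4 groups were first grown for 3 days with L929 supernatant equivalent to 20 ng/ml of M-CSF, which makes them macrophages. The labels' protocols then describe reseeding and stimulation with 40 ng/ml of RANKL, the ligand of RANK, while the conditioned medium was kept. Each genotype has libraries titled R40D3 and R0D3. What these codes stand for is not written in the labels, which give 1 and the same treatment for all 8 libraries. They therefore serve only as names, and the difference between them is called the culture effect. Samples are numbered 1 and 2 in each group. The labels do not say that they came from separate animals, so every p-value measures only the spread between these samples.

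RANK is a receptor of the tumour necrosis factor receptor family on macrophages and osteoclast precursors. Once RANKL binds it, adaptors of the TRAF family gather at its tail and start NF-kappaB signalling along a pair of branches. In the canonical branch an IkappaB protein is degraded and releases dimers that contain the Nfkb1 product, and in the non-canonical branch the kinase NIK, encoded by Map3k14, drives processing of the Nfkb2 product, which then pairs with RelB. Mice that lack RANK, or lack both Nfkb1 and Nfkb2, are known to form no osteoclasts.

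The promoters are shown first because the genes with the largest culture effects include known NF-kappaB targets. RefSeq entries on GRCm38.p6 matched 8 of the 10 genes, with none for Nfkb1 or Relb, and gave 10 start sites. The 250 bases upstream of each were searched on both strands for the kappaB consensus and for the AP-1 sequence TGANTCA. The kappaB consensus was present at 3 of the 8 genes, Traf3, Nfkb2 and Nfkbia, against 8.23% of 27025 genes with an entry. TGANTCA was present at 1 of the 8, Nfkb2, against 7.82%. Traf1, which had the largest culture effect of the 10 genes, had a match to neither sequence. The windows that hold kappaB matches follow, 5′ to 3′ on the strand of the gene, with the match in capitals. The Traf3 match ends at the last base before the start, and the Nfkbia match lies within 39 bases of it.
Traf3, chr12:111166340-111166369, plus strand: cgcgcgcccaggcggcccgcGGGGATTTCC
Nfkb2, start site 1, chr19:46304688-46304717, plus strand: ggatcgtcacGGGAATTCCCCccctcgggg
Nfkb2, start site 2, chr19:46305449-46305478, plus strand: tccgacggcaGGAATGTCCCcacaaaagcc
Nfkb2, start site 3, chr19:46305695-46305724, plus strand: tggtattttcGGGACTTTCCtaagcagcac
Nfkbia, chr12:55492657-55492686, minus strand: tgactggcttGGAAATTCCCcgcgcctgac

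In the first Nfkb2 window, a pair of overlapping matches make up the capitals, and a further match starts 11 bases before that same start site. The 250-base windows of Nfkb2 also overlap annotated exons of Nfkb2 or of the lncRNA gene AC114539.1. The whole 250-base Nfkbia window, which overlaps no annotated exon and ends at the base before the start, is given because Nfkbia has a large culture effect and a single match.
Nfkbia, chr12:55492648-55492897, minus strand: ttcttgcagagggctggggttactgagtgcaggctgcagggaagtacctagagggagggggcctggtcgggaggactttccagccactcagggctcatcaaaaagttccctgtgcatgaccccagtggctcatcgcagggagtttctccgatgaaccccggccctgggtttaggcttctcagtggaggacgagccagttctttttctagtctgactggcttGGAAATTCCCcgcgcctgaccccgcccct
A match is a description of these letters, and binding was not measured.

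Impdh2, the deleted gene, checks the labels. Its normalised level, in CPM, the counts of a gene relative to the scaled library size, was 22.3 and 28.2 in Wt R0D3, 25.7 and 27.7 in Wt R40D3, 7.36 and 7.03 in LysM-cKO R0D3, and 7.72 and 8.38 in LysM-cKO R40D3. All 4 LysM-cKO libraries lay below all 4 Wt libraries, by a log2 fold change of -1.73 ± 0.15 (SE) at R40D3 (edgeR adjusted p = 0.0386). Total counts ran from 16009146 to 19221865 per library. The summed level of 11 osteoclast markers, led by Mmp9, Ctsk and Acp5, ran from 325 to 471 CPM in the R0D3 libraries and from 13272 to 38999 CPM in the R40D3 libraries. Macrophage markers were high in all 8 libraries, with Csf1r from 1655 to 2873 CPM, so the R0D3 libraries carry macrophage and few osteoclast transcripts, although their cell type label is osteoclast. Of the 9 macrophage markers, 8 were lower at R40D3 in Wt, with Csf1r the exception, and 7 were lower in LysM-cKO. Fold changes were below 0 for 48.8% of all genes in each genotype. Of these markers edgeR called 2 lower in each genotype, where 5.52% of all genes in Wt and 3.15% in LysM-cKO were called lower. Summed T and NK cell and erythroid markers were each under 1 CPM in every library. Stromal fibroblast markers summed to between 426 and 1599 CPM, and both LysM-cKO libraries of replicate 2 were the lowest, at 498 CPM at R0D3 and 426 CPM at R40D3.

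**Figure D1:**
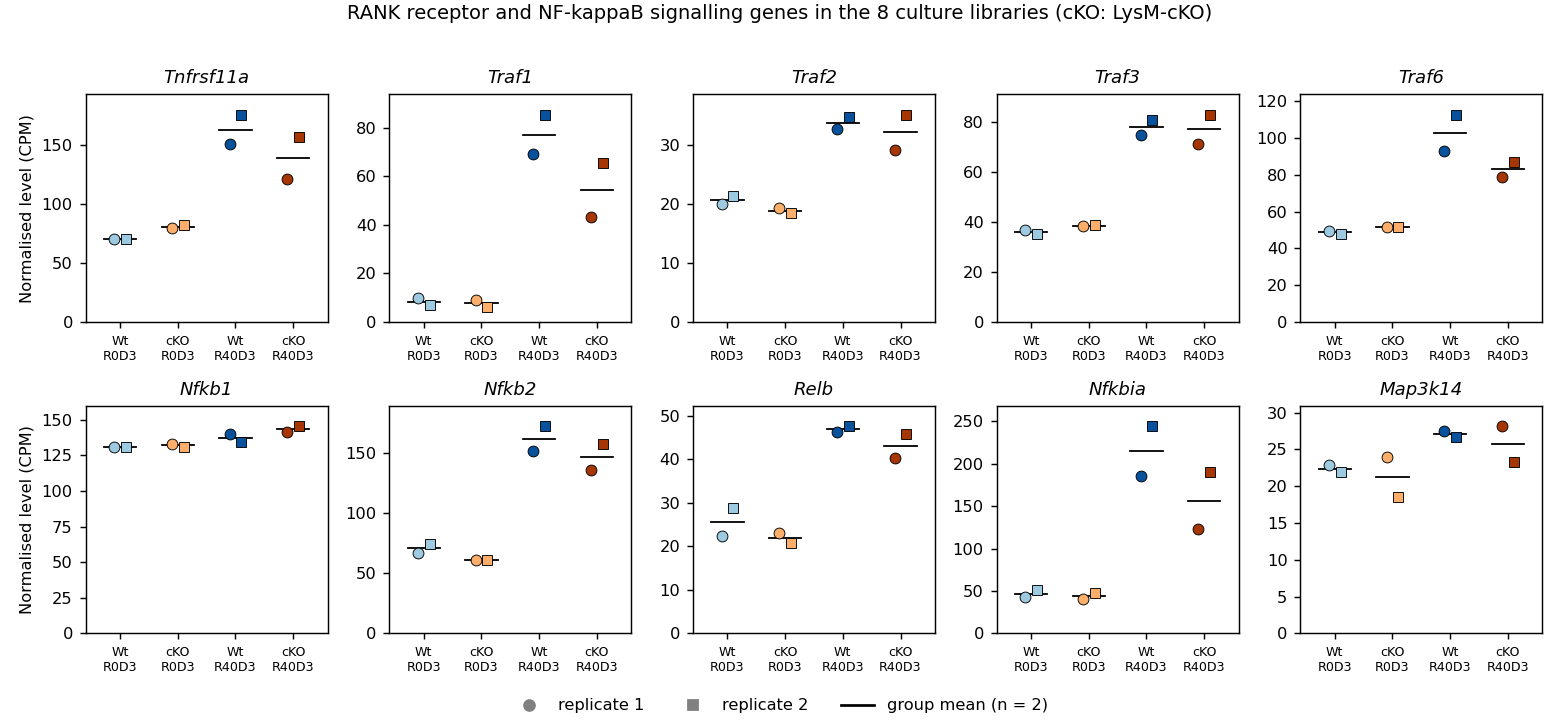
Normalised level (CPM, linear axis from 0) of each of the 10 genes in the 8 culture libraries. Circles are replicate 1, squares replicate 2 and bars the mean of 2 libraries. In 8 panels both R40D3 groups stand clear above both R0D3 groups, Nfkb1 stays between 131 and 145 CPM, and Map3k14 overlaps. Of all genes tested, 32.9% were higher at R40D3 without overlap in Wt and 27.3% in LysM-cKO.

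RANK rose with the culture effect in both genotypes. Tnfrsf11a was at 70.20 and 70.20 CPM in the Wt R0D3 libraries and at 150 and 175 CPM in the Wt R40D3 libraries. In LysM-cKO it was at 79.5 and 81.9 CPM at R0D3 and at 121 and 156 CPM at R40D3. Every R40D3 library was above every R0D3 library, and the LysM-cKO R40D3 library of replicate 1 was the lowest of the R40D3 libraries. The log2 fold change was 1.21 ± 0.13 (SE) in Wt, a 2.32-fold rise (edgeR adjusted p = 0.00161), and 0.78 ± 0.13 in LysM-cKO, a 1.72-fold rise (adjusted p = 0.0126). The gene lies on chromosome 1 of GRCm38, at 105780718-105847981 on the plus strand. The LysM-cKO call was lost without the R40D3 library of replicate 2, where the log2 fold change was 0.55 (adjusted p = 0.0652). It was also lost without either LysM-cKO R0D3 library and with only the 4 LysM-cKO libraries in the fit (adjusted p = 0.0753, 0.0704 and 0.0526).

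Among the adaptors, Traf1 had the largest culture effect of the 10 genes. TRAF1 has no RING domain of its own and works through the other TRAF proteins. Traf1 (chromosome 2, 34941750-34961772, minus strand) was low at R0D3, at 9.79 and 7.09 CPM in Wt R0D3 and 9.26 and 6.37 CPM in LysM-cKO R0D3. At R40D3 the Wt libraries had 69.1 and 85.2 CPM of Traf1 and the LysM-cKO libraries 43.3 and 65.4 CPM. No R40D3 library came near the R0D3 range, and both LysM-cKO R40D3 libraries were below both Wt ones. The log2 fold change was 3.19 ± 0.28 in Wt, or 9.11-fold (adjusted p = 0.000708), and 2.79 ± 0.28 in LysM-cKO, or 6.93-fold (adjusted p = 0.00185).

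Traf6 encodes the adaptor that RANK needs for canonical NF-kappaB and MAP kinase signalling. Its levels (chromosome 2, 101678429-101701669, plus strand) were 49.3 and 48.1 CPM in Wt R0D3 and 93.0 and 113 CPM in Wt R40D3. In LysM-cKO they were 51.8 and 51.6 CPM at R0D3 and 79.0 and 87.1 CPM at R40D3. The 4 R0D3 libraries were close together, and at R40D3 both LysM-cKO libraries lay below both Wt libraries. Traf6 rose by a log2 fold change of 1.08 ± 0.11 in Wt (adjusted p = 0.00118) and 0.68 ± 0.11 in LysM-cKO (adjusted p = 0.0105). The LysM-cKO call was lost without either LysM-cKO R0D3 library or without the LysM-cKO R40D3 library of replicate 2, at adjusted p values from 0.0600 to 0.0789.

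Traf3 and Traf2 take part in the complex that keeps NIK unstable until a receptor is engaged. Traf3 (chromosome 12, 111166370-111267153, plus strand) was at 36.8 and 35.1 CPM in Wt R0D3, 38.2 and 38.7 CPM in LysM-cKO R0D3, 74.5 and 80.8 CPM in Wt R40D3, and 71.2 and 82.6 CPM in LysM-cKO R40D3. The R40D3 values of the genotypes overlapped, and all were above the R0D3 range. The log2 fold change of Traf3 was 1.11 ± 0.10 in Wt (adjusted p = 0.000826) and 1.00 ± 0.10 in LysM-cKO (adjusted p = 0.00189). Traf2 (chromosome 2, 25517982-25546940, minus strand) was at 20.0 and 21.3 CPM in Wt R0D3, 19.2 and 18.4 CPM in LysM-cKO R0D3, 32.6 and 34.7 CPM in Wt R40D3, and 29.1 and 35.0 CPM in LysM-cKO R40D3. Its groups at R40D3 also overlapped between genotypes. Traf2 rose least among the 8 genes called in Wt, by 0.71 ± 0.12 (adjusted p = 0.00796), with 0.77 ± 0.12 in LysM-cKO (adjusted p = 0.00995). The Wt call of Traf2 was lost without either Wt R0D3 library or without the Wt R40D3 library of replicate 2, at adjusted p values from 0.0536 to 0.0954. Its LysM-cKO call was lost without the same 3 libraries of that genotype (adjusted p from 0.0513 to 0.0688) and with only 4 libraries in the fit (adjusted p = 0.0553).

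The subunit genes did not move together. Nfkb1, whose product gives the canonical p50 subunit, was at 131.2 and 131.1 CPM in Wt R0D3 and 140 and 134 CPM in Wt R40D3. It was at 133 and 131.2 CPM in LysM-cKO R0D3 and 141 and 145 CPM in LysM-cKO R40D3. The R40D3 libraries were above the R0D3 ones by a small margin in each genotype. The culture effect on Nfkb1 was 0.06 on the log2 scale in Wt (95% interval -0.11 to 0.23, adjusted p = 0.617) and 0.12 in LysM-cKO (-0.05 to 0.29, adjusted p = 0.385). Those intervals leave out a change as large as that of any of the 8 genes called. Nfkb1 lies on chromosome 3, at 135584655-135691547, on the minus strand.

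Nfkb2 and Relb, the subunit genes of the non-canonical branch, both rose. Nfkb2 (chromosome 19, 46304320-46312385, plus strand) was at 66.9 and 74.5 CPM in Wt R0D3, 60.5 and 60.6 CPM in LysM-cKO R0D3, 151 and 172 CPM in Wt R40D3, and 135 and 157 CPM in LysM-cKO R40D3. At R0D3 both LysM-cKO libraries were below both Wt libraries, and at R40D3 the genotypes overlapped. The log2 fold change of Nfkb2 was 1.19 ± 0.11 in Wt (adjusted p = 0.000883) and 1.27 ± 0.11 in LysM-cKO (adjusted p = 0.00118). Of its exonic bases, 18.1% are shared with the opposite-strand genes Psd and AC114539.1, and whether counting used strand is not given in the sources used here. Their own counts were higher at R40D3 as well, with 91 to 135 counts of Psd per library at R0D3 and 287 to 378 at R40D3, and 99 to 147 and then 158 to 223 counts of AC114539.1. Their part in the Nfkb2 values was not tested. Relb (chromosome 7, 19606217-19629438, minus strand) was at 22.4 and 28.9 CPM in Wt R0D3 and 46.2 and 47.6 CPM in Wt R40D3, and at 23.0 and 20.8 CPM and then 40.3 and 45.8 CPM in LysM-cKO. In each genotype the R40D3 libraries of Relb lay above the R0D3 range, with log2 fold changes of 0.87 ± 0.14 (adjusted p = 0.00614) and 0.97 ± 0.14 (adjusted p = 0.00699). The Relb call was lost in Wt without the R40D3 library of replicate 2 (adjusted p = 0.0681), and in LysM-cKO without replicate 2 of either R0D3 or R40D3 (adjusted p = 0.0551 and 0.0507).

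Nfkbia encodes IkappaB-alpha, the inhibitor that holds canonical dimers in the cytoplasm and is itself switched on by NF-kappaB. Nfkbia (chromosome 12, 55489410-55492647, minus strand) was at 42.8 and 51.0 CPM in Wt R0D3 and 40.1 and 47.9 CPM in LysM-cKO R0D3. At R40D3 the Wt libraries had 186 and 244 CPM of Nfkbia and the LysM-cKO libraries 123 and 190 CPM. The R40D3 libraries were all far above the R0D3 range, and among them the values spread more than for any other of the 10 genes in CPM. The rise was 2.20 ± 0.23 on the log2 scale in Wt, or 4.58-fold (adjusted p = 0.00143), and 1.83 ± 0.23 in LysM-cKO, or 3.55-fold (adjusted p = 0.00441). Its promoter is the one printed in full above.

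Map3k14, the NIK gene, is controlled mainly through the stability of its protein. Its RNA (chromosome 11, 103219762-103267472, minus strand) was at 22.8 and 21.9 CPM in Wt R0D3, 23.9 and 18.5 CPM in LysM-cKO R0D3, 27.5 and 26.6 CPM in Wt R40D3, and 28.1 and 23.2 CPM in LysM-cKO R40D3. The Wt groups did not overlap and the LysM-cKO groups did. The log2 fold changes were 0.27 (95% interval -0.08 to 0.63, adjusted p = 0.279) and 0.28 (-0.08 to 0.63, adjusted p = 0.327), and neither passed the test.

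In all, 8 of the 10 genes rose in Wt, where 11.4% of all genes tested were called higher, and 8 of the 10 rose in LysM-cKO, where 6.99% were. Nfkb1 and Map3k14 were the exceptions in each genotype, and none of the 10 fell. Both R40D3 libraries lay above both R0D3 libraries for all 10 genes in Wt, as for 32.9% of all genes. In LysM-cKO they did for 9 of the 10, as for 27.3% of all genes. The Wt count was 6 without the Wt R40D3 library of replicate 2. The LysM-cKO count was 4 without the R40D3 library of replicate 2, 4 without the R0D3 library of replicate 2 and 5 without the R0D3 library of replicate 1. Their median log2 fold change over all 10 was 1.09 in Wt and 0.88 in LysM-cKO, against 0.01 over all genes in each. The 10 genes were chosen with earlier results of these data known, so these comparisons with all genes are descriptions only. The osteoclast markers rose with the same libraries, and the part of cell type in these values was not tested. In bulk RNA, fewer cells of a type and less RNA per cell cannot be told apart.

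**Figure D2:**
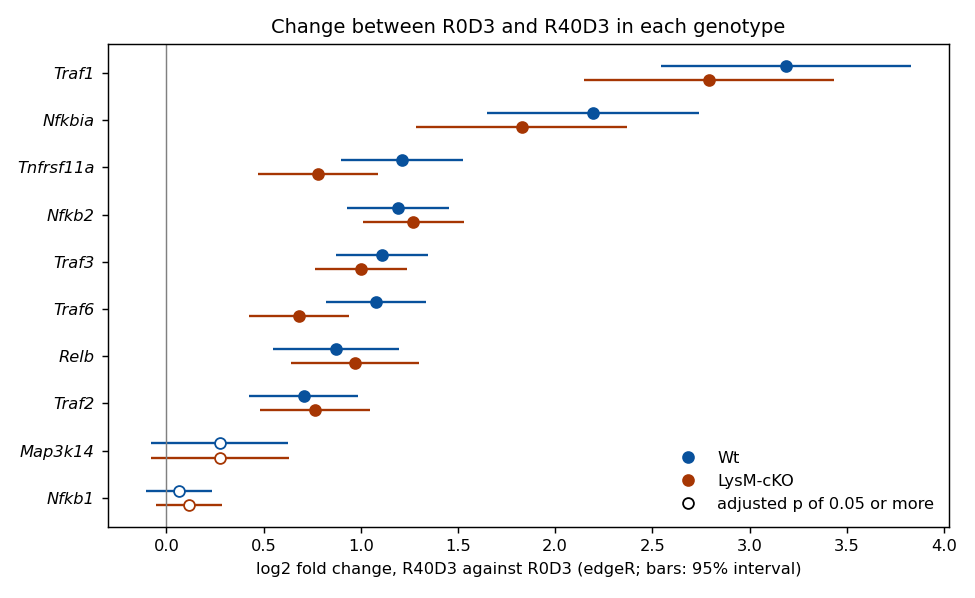
Culture effect (log2 fold change of R40D3 against R0D3, edgeR) for the 10 genes in Wt and LysM-cKO. Bars are 95% intervals and open symbols are genes with an adjusted p of 0.05 or more. Traf1 and Nfkbia lie farthest right, Map3k14 and Nfkb1 are open in both genotypes, and the intervals of Wt and LysM-cKO overlap for each gene.

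Levels were compared between genes only per kilobase of annotated exon (CPM per kb, mean of 2 libraries ± SD). In Wt R0D3 the order of levels was led by Nfkbia at 29.1 ± 3.6, followed by Nfkb2 at 15.4 ± 1.2, Tnfrsf11a at 11.7 ± 0.00081 and Nfkb1 at 10.9 ± 0.0028. Relb and Traf6 came next at 6.60 ± 1.2 and 6.18 ± 0.11, which do not differ beyond the spread of Relb. Traf3 was at 4.89, Traf2 at 4.04, Map3k14 at 3.42 and Traf1 last at 0.957 ± 0.22. In Wt R40D3 Nfkbia stood at 133 ± 26, Nfkb2 at 35.2 ± 3.2 and Tnfrsf11a at 27.2 ± 2.9. Traf6 at 13.0 ± 1.7, Relb at 12.1 ± 0.25, Nfkb1 at 11.4 ± 0.31 and Traf3 at 10.6 ± 0.61 formed a middle group, in which Traf6 and Relb do not differ beyond the spread. Traf1 moved from the last place to the eighth, at 8.75 ± 1.3, above Traf2 at 6.59 and Map3k14 at 4.13. The order in LysM-cKO R40D3 again began with Nfkbia, Nfkb2 and Tnfrsf11a, at 97.1 ± 29, 31.9 ± 3.4 and 23.2 ± 4.1, and ended with Traf2, Traf1 and Map3k14. In LysM-cKO R0D3 Tnfrsf11a, at 13.5 ± 0.29, stood just above Nfkb2, at 13.2 ± 0.016, behind Nfkbia at 27.3 ± 3.4, and these neighbours Tnfrsf11a and Nfkb2 do not differ beyond the spread of Tnfrsf11a.

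The study asked what deletion of Impdh2 does to osteoclast formation, so each gene was also compared between genotypes. At R40D3 none of the 10 genes was called different between LysM-cKO and Wt by edgeR, which called 0.0143% of all genes tested, or by DESeq2 without a block. Their log2 fold changes were below 0 for 9 of 10 genes, against 51.4% of all genes, but only 7 without LysM-cKO R40D3 replicate 1, where Traf2 was at 0.08 and Traf3 at 0.11. The number was 8 without LysM-cKO R40D3 replicate 2, where Map3k14 was at 0.04. It was also 8 without Wt R40D3 replicate 2 and with library size alone for scaling, where Traf3, at -0.01 with all libraries, was above 0. The median over the 10 was -0.13, against -0.01 over all genes. The largest differences were at Traf1 (-0.51, 95% interval -1.06 to 0.05, adjusted p = 0.648), Nfkbia (-0.46, -0.98 to 0.06, adjusted p = 0.648), Traf6 (-0.31, -0.56 to -0.06, adjusted p = 0.648) and Tnfrsf11a (-0.23, -0.53 to 0.08, adjusted p = 0.674). Single libraries moved these values by more than 1.5 times. Without LysM-cKO R40D3 replicate 2 they were -0.85 for Traf1, -0.82 for Nfkbia and -0.44 for Tnfrsf11a, and without LysM-cKO R40D3 replicate 1 they were -0.21, -0.16 and -0.03. Traf6 was at -0.44 without Wt R40D3 replicate 1 and at -0.15 without Wt R40D3 replicate 2. Traf6 was the 1 gene of the 10 with an unadjusted edgeR p under 0.05, where 7.47% of all genes had one. With the replicate number as a block there were 4, where 18.5% of all genes had one. With that block edgeR called none of the 10 and 0.214% of all genes, and its adjusted p for Nfkbia was 0.0972. DESeq2 with the block, which called 181 genes, called Nfkbia lower in LysM-cKO (adjusted p = 0.0151, with a range from 0.0151 to 1.00 over 16 alternatives).

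Within replicate numbers, both pairs were lower in LysM-cKO R40D3 for 6 of the 10 genes, against 34.3% of all genes. The 6 were Tnfrsf11a, Traf1, Traf6, Nfkb2, Relb and Nfkbia. The paired differences in log2 CPM were -0.67 and -0.38 for Traf1, -0.59 and -0.36 for Nfkbia, -0.24 and -0.37 for Traf6, and -0.31 and -0.16 for Tnfrsf11a. For Nfkb2 they were -0.16 and -0.13 and for Relb -0.20 and -0.06. Traf2 and Traf3 were lower in pair 1 and not in pair 2, Map3k14 the opposite, and Nfkb1 was higher in both pairs, by 0.01 and 0.11. The groups as a whole did not overlap for Traf1, Traf6 and Relb, all lower in LysM-cKO, where 18.9% of all genes were lower without overlap, and for Nfkb1, which was higher, as were 19.7% of all genes.

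**Figure D3:**
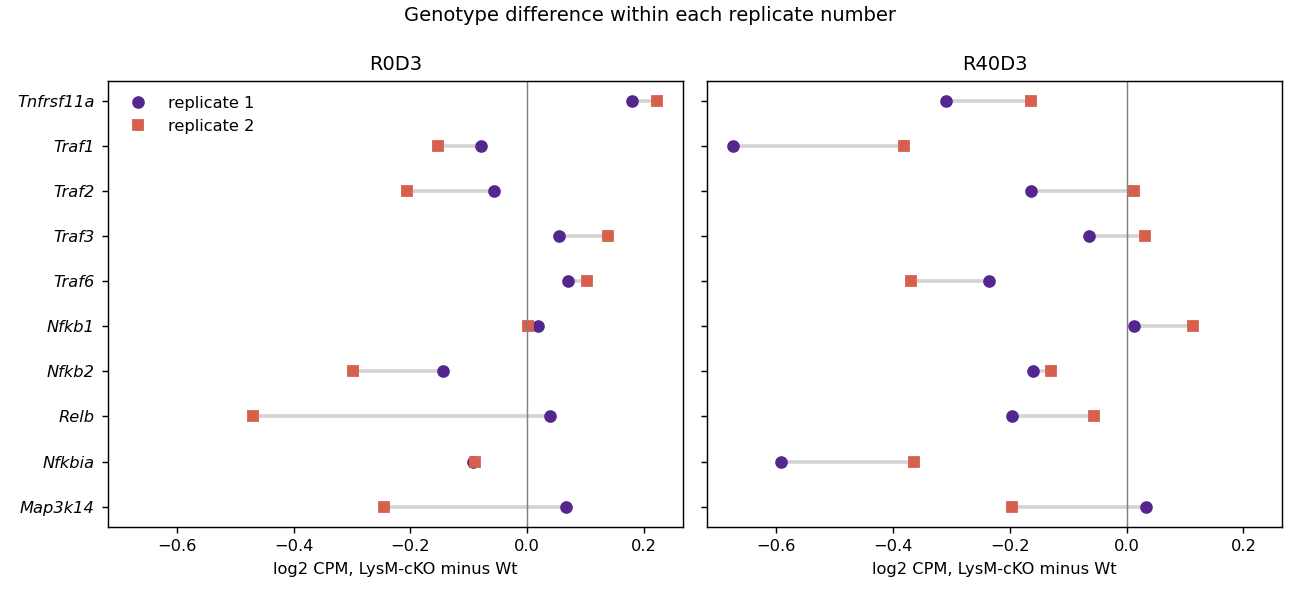
Genotype difference (log2 CPM, LysM-cKO minus Wt) of the 10 genes within replicate 1 (circles) and replicate 2 (squares), at R0D3 on the left and R40D3 on the right. Grey lines join the pair. At R40D3 both points lie left of 0 for 6 genes, while at R0D3 both points lie right of 0 for Tnfrsf11a, Traf3, Traf6 and Nfkb1 and left of it for Traf1, Traf2, Nfkb2 and Nfkbia.

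At R0D3 the genotypes were compared in the same way. None of the 10 was called by edgeR or DESeq2, and again edgeR called 0.0143% of all genes. Of the 10, 0 had an unadjusted edgeR p under 0.05, where 4.42% of all genes did. With the block 1 of the 10, Nfkb2, had an unadjusted p under 0.05 (adjusted p = 0.382 by edgeR), where 10.5% of all genes did. Both pairs were higher in LysM-cKO for 4 of the 10, Tnfrsf11a, Traf3, Traf6 and Nfkb1, where they were for 29.5% of all genes. Both were lower for 4 others, Traf1, Traf2, Nfkb2 and Nfkbia, where they were for 28.2%. The groups did not overlap for 4 genes that were higher and 2 that were lower, against 17.5% and 14.8% of all genes. Tnfrsf11a was higher in LysM-cKO R0D3 in both pairs, by 0.18 and 0.22 in log2 CPM, and the groups did not overlap, but the fitted difference of 0.20 had a 95% interval of -0.11 to 0.51 (adjusted p = 0.997). Nfkb2 was lower in both pairs, by -0.14 and -0.30, with a fitted difference of -0.22 (-0.48 to 0.04, adjusted p = 0.997).

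Whether the culture effect itself differed between genotypes was tested as an interaction. No gene was called, among the 10 or among all genes tested (0% called by edgeR). The interaction was -0.43 for Tnfrsf11a (95% interval -0.87 to 0.01, unadjusted p = 0.0528 by edgeR), -0.39 for Traf6 (-0.76 to -0.03, unadjusted p = 0.0363), -0.40 for Traf1 (-1.29 to 0.50) and -0.37 for Nfkbia (-1.11 to 0.38), each with an adjusted p of 1.00. These values too rested on single libraries. Without LysM-cKO R40D3 replicate 2 the interaction was -0.63 for Tnfrsf11a, -0.73 for Traf1 and -0.72 for Nfkbia. It was -0.22 for Tnfrsf11a and -0.05 for Nfkbia without LysM-cKO R40D3 replicate 1, and -0.07 for Traf1 without LysM-cKO R0D3 replicate 1. For Traf6 it was -0.52 without Wt R40D3 replicate 1 and -0.23 without Wt R40D3 replicate 2. Only Traf6 had an unadjusted p under 0.05, where 1.77% of all genes did. With the block 3 of the 10 did, Tnfrsf11a, Traf6 and Nfkbia, where 5.99% of all genes did, and their adjusted p was 0.811. DESeq2 without the block also called no gene. For Nfkb2 the interaction was 0.08 (-0.29 to 0.44) and for Relb 0.10 (-0.36 to 0.56), intervals that hold differences in either direction.

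The R40D3 libraries also differed in how much osteoclast RNA they held. The summed osteoclast markers were 13272 CPM in LysM-cKO replicate 1, 24986 CPM in LysM-cKO replicate 2, 26473 CPM in Wt replicate 1 and 38999 CPM in Wt replicate 2. Of the 10 genes, 8 were lowest in LysM-cKO R40D3 replicate 1 among these 4 libraries, and 6 were highest in Wt R40D3 replicate 2. Traf1, Traf6 and Relb followed the full order of the marker sum. Nfkbia, Tnfrsf11a and Nfkb2 followed it except between its middle libraries, where LysM-cKO replicate 2 was above Wt replicate 1. The other 4 genes did not follow it. Traf2 and Traf3 were highest in LysM-cKO replicate 2, at 35.0 and 82.6 CPM, and lowest in LysM-cKO replicate 1. Map3k14 was highest in LysM-cKO replicate 1, at 28.1 CPM, and lowest in LysM-cKO replicate 2, at 23.2 CPM. Nfkb1 was lowest in Wt replicate 2 at 134 CPM and highest in LysM-cKO replicate 2 at 145 CPM. How many of all genes tested follow such orders was not counted, so the counts for the 10 genes have no background beside them. Whether the osteoclast share of a culture accounts for these differences was not tested. Summed macrophage markers were 27039 and 27721 CPM in Wt R40D3 and 18558 and 20508 CPM in LysM-cKO R40D3, with Lyz2, the gene that encodes LysM, at 18949 and 20334 CPM and at 11773 and 11302 CPM. Without Lyz2 the other 8 macrophage markers summed to 8091 and 7387 CPM in Wt R40D3 and to 8735 and 7256 CPM in LysM-cKO R40D3, ranges that overlap. Lyz2 was lower in LysM-cKO at R0D3 as well, with a mean of 16130 CPM against 32626 CPM in Wt. The part of the Cre allele in this or other genotype differences was not tested. Summed cell cycle markers were 227 to 246 CPM in Wt R40D3 and 266 to 459 CPM in LysM-cKO R40D3. At R0D3 they were 351 to 486 CPM in Wt and 455 to 951 CPM in LysM-cKO, ranges that overlap. Within each replicate number the LysM-cKO sum was the higher in both cultures, so this was not particular to R40D3. In LysM-cKO the higher library was replicate 2 in both cultures.

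**Figure D4:**
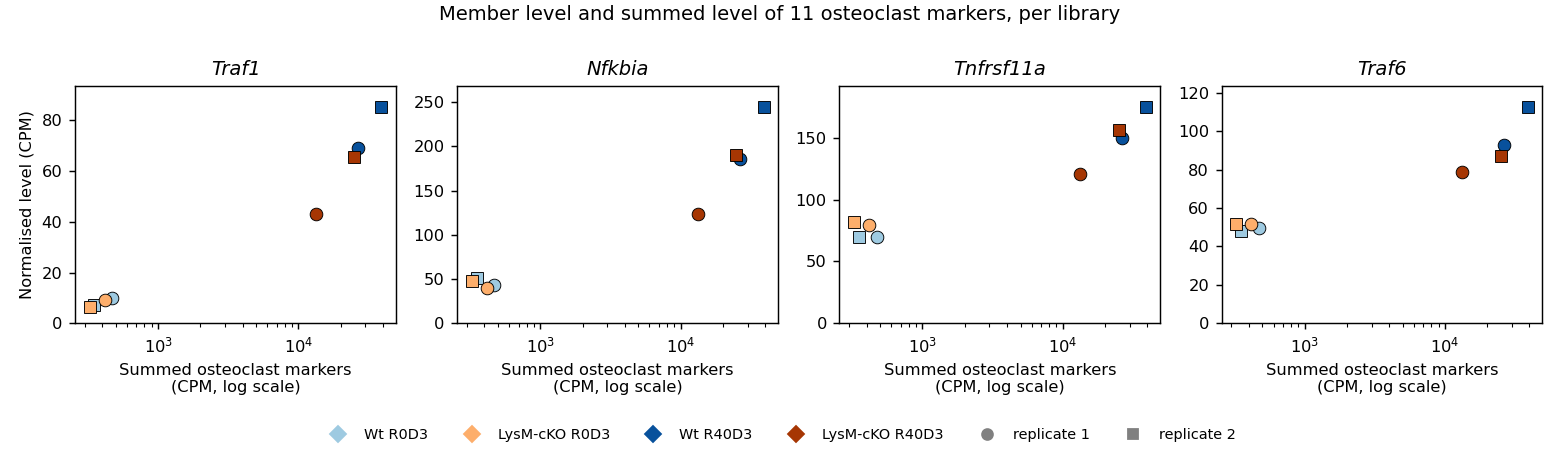
Level of Traf1, Nfkbia, Tnfrsf11a and Traf6 (CPM, linear axis) against the summed level of 11 osteoclast markers (CPM, log axis) in the 8 culture libraries. Colours are groups, circles replicate 1 and squares replicate 2. LysM-cKO R40D3 replicate 1 is the lowest of the R40D3 points on both axes in each panel, and Wt R40D3 replicate 2 the highest. The panels are a selection. Not shown are Nfkb2 and Relb, and Traf2, Traf3, Map3k14 and Nfkb1, which did not follow the order of the marker sum.

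Other genes of the pathway were read from lists written from general knowledge, but with earlier results of these data known. Beside the shares of all genes that rose, 5.52% of all genes fell in Wt and 3.15% in LysM-cKO. With the replicate block 16.7% rose and 11.6% fell in Wt, and 13% rose and 8.22% fell in LysM-cKO. Of the upstream ligands and receptors, 11 of 13 could be tested, and none rose with the culture effect in either genotype. In Wt 2 fell: Tnfrsf1b, the gene of TNF receptor 2, by 0.52 on the log2 scale (adjusted p = 0.0265), and Tlr4, the receptor for bacterial lipopolysaccharide, by 0.69 (adjusted p = 0.0337). In LysM-cKO 0 were called by edgeR or DESeq2, with 3 at an unadjusted edgeR p under 0.05, and with the replicate block the counts were 5 lower in Wt and 3 lower in LysM-cKO, with Tnf, Tnfrsf1b and Tlr4 among both. The Wt count was 0 without either Wt R0D3 library or without the Wt R40D3 library of replicate 2. Tnfsf11, the gene of RANKL itself, was at or below 0.55 CPM in every library and was not tested.

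Of the other NF-kappaB and IkappaB genes, 3 of 7 rose in each genotype and none was called lower. With the replicate block 3 were higher in each genotype, and 1, Nfkbiz, was lower in Wt (adjusted p = 0.0267). The 3 that rose were Nfkbie and Nfkbid, which encode proteins of the IkappaB family, and Bcl3, a co-regulator of the Nfkb1 and Nfkb2 products. Their log2 fold changes were 1.12, 1.00 and 0.53 in Wt and 1.28, 1.07 and 0.82 in LysM-cKO. Rela, which pairs with the Nfkb1 product in the canonical branch, was between 84.8 and 99.1 CPM in all 8 libraries, and Rel between 48.7 and 61.5 CPM, and neither was called. The Wt count was 0 without the Wt R0D3 library of replicate 1 or the Wt R40D3 library of replicate 2. The LysM-cKO count was 0 without the R0D3 library of replicate 2, and 1 without the R0D3 library of replicate 1 or the R40D3 library of replicate 2.

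Of 18 kinases and adaptors, 5 rose in Wt and 3 in LysM-cKO, and none was called lower. With the replicate block 5 were higher and 2, Map3k8 and Ripk1, lower in Wt, and 4 higher and 0 lower in LysM-cKO. Tank, a TRAF-binding adaptor, rose by 1.54 in Wt (adjusted p = 0.000856) and 1.35 in LysM-cKO (adjusted p = 0.00219). Birc3, which encodes a ubiquitin ligase that acts with TRAF2 and TRAF3 on NIK, rose by 1.12 (adjusted p = 0.000992) and 1.36 (adjusted p = 0.000909). Its relative Birc2 rose by 0.64 in Wt (adjusted p = 0.0234) and Ikbkg, the regulatory subunit of the IkappaB kinase, by 0.40 (adjusted p = 0.0246). The kinase subunit genes Chuk and Ikbkb were called in neither genotype. The Wt count was 2 without any 1 of the 4 Wt libraries, without the LysM-cKO R0D3 library of replicate 1, and with no filter on low counts.

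Negative regulators moved in both directions in Wt. Of 10, 3 rose and 1 fell in Wt, and 2 rose in LysM-cKO. The replicate block gave 4 higher and 2 lower in Wt, and 4 higher and 1 lower in LysM-cKO. Otud7b, a deubiquitinase gene of the non-canonical branch, rose by 0.93 (adjusted p = 0.00663), Tnip1 by 0.76 (adjusted p = 0.0198), and Tnfaip3, which encodes A20, by 1.17 (adjusted p = 0.0199). Otulin fell by 0.41 (adjusted p = 0.0469). The Wt count was 1 without the Wt R0D3 library of replicate 1, and 0 without replicate 2 of either Wt R0D3 or Wt R40D3. The LysM-cKO count was 0 when any 1 library was left out, except for the LysM-cKO R40D3 library of replicate 1, without which it was 2.

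Of the MAPK and AP-1 branch, 4 of 14 rose and 2 fell in Wt, and 3 rose and 1 fell in LysM-cKO. Fosl2 was at 59.0 and 46.8 CPM in Wt R0D3 and 486 and 675 CPM in Wt R40D3, a log2 fold change of 3.46 ± 0.28 (adjusted p = 0.000556). Nfatc1, the master transcription factor of osteoclast formation and also one of the osteoclast markers, rose by 2.42 ± 0.16 in Wt (adjusted p = 0.000264). Map2k3 rose by 1.20 (adjusted p = 0.00373) and Mapk8 by 0.67 (adjusted p = 0.0149) in Wt. Jun, Mitf and Mapk9 had lower means at R40D3 in Wt, at 149, 72.2 and 46.4 CPM. At R0D3 their Wt means were 194, 95.4 and 60.1 CPM. With the replicate block the counts were 6 higher and 3 lower in Wt, and 5 higher and 3 lower in LysM-cKO. The Wt count was 3, all higher, without the Wt R0D3 library of replicate 1 or the Wt R40D3 library of replicate 2. The LysM-cKO count was 2 without the R0D3 library of replicate 1 or the R40D3 library of replicate 2.

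The listed inflammatory target genes of NF-kappaB did not move as the 10 genes did. Nfkbia, also switched on by NF-kappaB, counts among the 10 genes and not in this list. Other targets can likewise stand among the 10 genes or in the other lists, where several genes rose. The values below therefore describe only the listed genes, and NF-kappaB targets as a whole were not tested. Of 16 listed 14 were tested, and in Wt 1 rose and 3 fell. Sod2, the mitochondrial superoxide dismutase gene, rose by 0.98 (adjusted p = 0.00922). Plau, the urokinase gene, fell by 1.26 (adjusted p = 0.00152) and Bcl2l1, a survival gene, by 1.11 (adjusted p = 0.00548). Bcl2a1b fell by 2.27 (adjusted p = 5.43e-05), but it has near-identical copies among which reads can be divided, so its value is uncertain. In LysM-cKO Sod2 rose and Plau, Bcl2l1 and Bcl2a1b fell as well, and Icam1, an adhesion molecule gene, rose by 0.75 (adjusted p = 0.0178). Without the LysM-cKO R0D3 library of replicate 2 the LysM-cKO count was 0 higher and 3 lower, and with the replicate block both genotypes had 2 higher and 4 lower. The median of the tested genes was -0.42 in Wt and -0.51 in LysM-cKO, against 1.09 and 0.88 for the 10 genes. Il1b, Il1a, Ccl5, Cxcl1, Cxcl2, Cxcl10 and Ptgs2 averaged at most 3.52 CPM in every group, so these list medians rest partly on low counts. Between genotypes edgeR called none of the genes of these 6 lists at R40D3 or R0D3, with or without the block. Without it 0 to 2 genes of each list had an unadjusted p under 0.05. DESeq2 without the block called none, and DESeq2 with the block called 2, both inflammatory targets at R40D3. At R40D3 the smallest p values among them belonged to genes such as Plau, which was 0.46 higher in LysM-cKO (adjusted p = 0.648), and Nfatc1, which was 0.42 lower (adjusted p = 0.648).

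**Figure D5:**
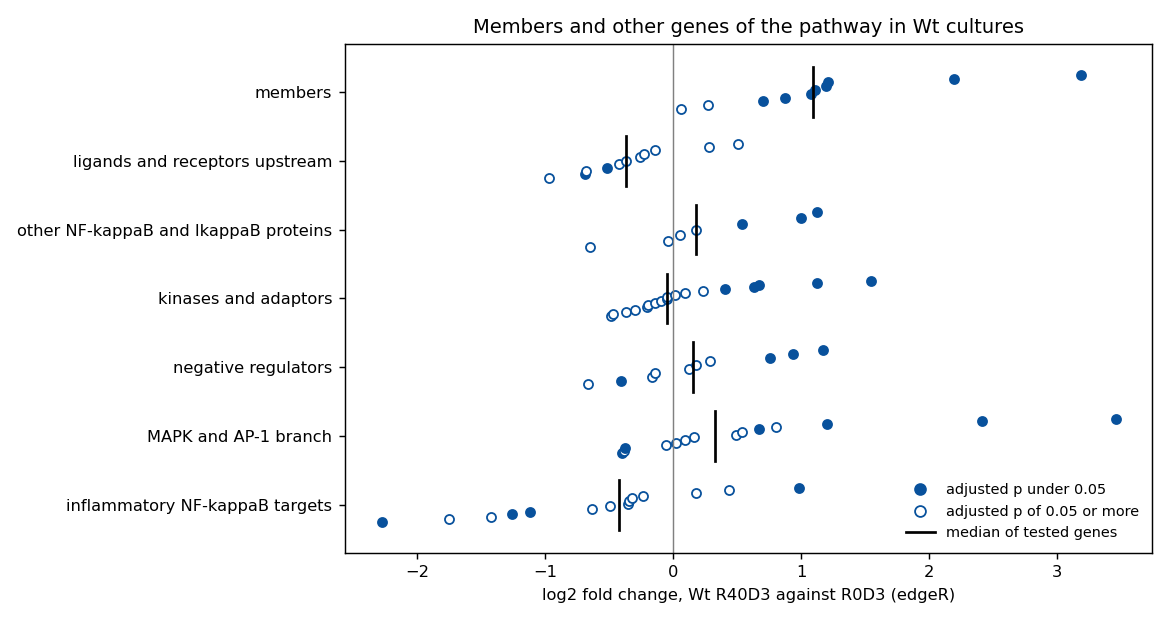
Culture effect in Wt (log2 fold change of R40D3 against R0D3, edgeR) of the 10 genes, in the top row, and of 6 lists of other pathway genes. Each point is a gene, filled where the adjusted p is under 0.05, and bars are medians. The median of the 10 genes is 1.09, while the medians of the other lists lie between -0.42 and 0.33.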

How the data were processed

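For the 8 culture libraries the authors deposited counts: whole numbers of reads for each Ensembl gene, not normalised. FastQC 0.11.2, Trimmomatic 0.36, HISAT2 2.1.0, DESeq2 1.12.4 and GRCm38 are named in the submitters' processing notes, and the library kit selects mRNA, per the labels' protocols. The counting tool, its annotation and its use of strand are not given in the sources used here. Symbols matched 99.5% of gene identifiers, and positions and exonic lengths were read from GENCODE M21 (GRCm38), possibly another release than the one used for counting.

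Genes were kept by filterByExpr of edgeR 4.0.16, which left 14030. Libraries were scaled by TMM, and group means of all 8 libraries were fitted with the quasi-likelihood test (legacy = FALSE), two-sided, with Benjamini-Hochberg adjustment over all genes and calls at an adjusted p under 0.05. The standard error of a log2 fold change is its size over the square root of F, and CPM uses the scaled library sizes. Paired log2 CPM differences use a prior count of 2. Libraries of the same group were further apart than counting noise, with chi-square values of 11.5 to 32.8 per degree of freedom. Same-numbered libraries deviated together in all 6 pairs of groups (correlation across genes 0.338 to 0.608), so the numbers were taken to pair the cultures and a fit with that block was an alternative. Other alternatives were other scalings, no filter, legacy = TRUE, DESeq2 1.42.0, only the 4 libraries compared, and leaving out each library. The scripts were tested on simulated counts that held no effect of replicate number, so that test does not cover the pairing seen here.

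The genes and lists were chosen with earlier results of these data known. Named pathway genes are up to 4 per list with the smallest p in Wt R40D3 against R0D3 and up to 2 with the smallest p between genotypes at R40D3, where the higher group averaged 5 CPM or more. Other genes named were chosen after their values were seen. B cell, dendritic cell and granulocyte markers summed to under 4, 25.7 to 114 and 51.8 to 315 CPM. Reads carry no molecular identifiers, so counts are not counts of molecules.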

Additional observations from a re-analysis of the deposited data

How the results depend on the processing

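No called result changed direction under any alternative run. In Wt, 8 of the 10 genes were called under every alternative that kept all Wt libraries, and 6 to 8 with 1 library left out. In LysM-cKO, 6 were called with only the 4 libraries compared, and 4 to 8 with 1 library left out. The losses were Tnfrsf11a, Traf2, Traf6 and Relb, and the cause was not tested beyond the smaller number of samples. Between genotypes at R40D3, the count was 0 for each alternative other than DESeq2 with the replicate block, which gave 1, Nfkbia, lower in LysM-cKO at -0.48 (adjusted p = 0.0151). The adjusted p of Nfkbia ran up to 1.00 over its 16 alternatives.

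Over all genes, pairing the libraries by replicate block raised the calls from 2367 to 3977 in Wt and from 1422 to 2983 in LysM-cKO, or 2368 there with the block in DESeq2. With only the 4 libraries compared, LysM-cKO had 533. Leaving out 1 library gave 689 to 2425 in Wt and 399 to 1317 in LysM-cKO. Between genotypes at R40D3, where edgeR called 2 genes, the block gave 30, DESeq2 23 and DESeq2 with the block 181, while library size alone, only the 4 libraries compared and each left-out library gave 0. At R0D3, also with 2, DESeq2 gave 7, DESeq2 with the block 58, only the 4 libraries compared 0 and left-out libraries 0 to 1. The interaction, with 0, gave 6 under DESeq2 with the block. The block changed no call among the 10 genes in edgeR. With 2 libraries a group, the 4 groups were fitted together and share an estimate of the spread for each gene. The width of an interval is therefore not set by the compared groups alone. The parts of spread and depth in that width were not tested.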

Other observations

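Fos and Junb, AP-1 genes of the RANK pathway, differed more between replicate numbers than between R0D3 and R40D3. They were picked after their values were seen. Fos was at 25.6 and 170 CPM in Wt R0D3, 27.4 and 158 CPM in LysM-cKO R0D3, 66.9 and 276 CPM in Wt R40D3, and 50.2 and 277 CPM in LysM-cKO R40D3, with replicate 1 first. In each group replicate 2 was the higher library. Junb was at 82.8 and 154 CPM in Wt R0D3, 75.9 and 120 CPM in LysM-cKO R0D3, 116 and 217 CPM in Wt R40D3, and 102 and 183 CPM in LysM-cKO R40D3. The culture effect in Wt was 0.81 for Fos and 0.49 for Junb on the log2 scale, with edgeR adjusted p values of 0.715 and 0.510. With the replicate block the adjusted p values were 0.000874 and 0.00203, and in LysM-cKO 0.00345 and 0.00234. Among the 10 genes Nfkbia had the clearest split of the same kind at R40D3, with replicate 2 above replicate 1 in each genotype.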
